A study of Danio rerio with 40 samples.

Results

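Zebrafish (Danio rerio) males were each held under high and under low risk of sperm competition, and the samples described here were divided by which of these came first. Males of the High-first line spent the first 2 weeks with a rival male and a female (High1) and the next 2 weeks as the only male with several females (Low2). Males of the Low-first line had the same treatments in the opposite order (Low1, then High2). All fish were labelled WT, and sperm was collected at the end of each period from single males. The line and the period were read from the prefix of each library name, with the order of treatments that the study's own sample sheets give for each prefix. On that reading both lines hold both treatments in about equal number, and what separates them is the order. The public treatment labels go against it: they differ from the treatment by order in 23 of 40 samples, 5 of 20 in the first period and 18 of 20 in the second. By the public labels 17 of 20 samples of the High-first prefix were under High competition and 17 of 20 of the Low-first prefix under Low. The contrast of lines by prefix is thus nearly a contrast of High with Low competition by the public labels, and the sources used here do not settle which reading holds, so order and treatment cannot be told apart. The group names below are those of the prefix, and grouping instead by the first word of the public label (High or Low) moves 6 of the 40 samples, 5 with a miRNA column and 2 with a piRNA column.

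The miRNA table holds 346 miRNAs in 39 libraries, 19 of the High-first line and 20 of the Low-first line. The piRNA table holds 1434 clusters in 24 libraries, 12 of each line. Libraries of 1 line that carry the same number were averaged and counted once, which left 10 numbers against 10 for miRNAs and 9 against 8 for piRNA clusters. Since by the prefix every male belongs to 1 line, order cannot be told apart from differences between these males and their tanks, and each p-value measures the spread between these samples.

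MicroRNAs are short RNAs that, bound to an Argonaute protein, lower the translation or stability of messenger RNAs that pair with their first bases, the seed. Piwi-interacting RNAs (piRNAs) are germline RNAs cut from long transcripts of genomic clusters, and with Piwi proteins they silence transposable elements. Sperm carries both kinds, and each ejaculate also holds RNA from the cells and fluid of the reproductive tract. In such bulk samples, fewer cells of a type and less RNA per cell cannot be told apart.

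The deposited values are log2 of normalised reads plus 4, and levels below are given as normalised reads, that is with the logarithm and the 4 removed. Total miRNA reads were 133035 to 5600401 in High-first libraries (median 1902366) and 79435 to 8447142 in Low-first libraries (median 3015906). Reads aligned to piRNA clusters were 5983071 to 56435023 in High-first libraries (median 26134266) and 23530143 to 44501520 in Low-first libraries (median 34292247). The 2 shallowest piRNA libraries, second-period samples 2 and 3, were both High-first. Libraries with the same number did not resemble each other as 2 samples of 1 male might: over the 150 clusters of largest SD, the rank correlation of their deviations ran from -0.287 to 0.0995 in 7 pairs. In those clusters 22 of 24 libraries were most alike a library of their own line, 0 of them the one with the same number. Over all pairs of libraries, however, the median rank correlation there was -0.0357 within a line and -0.0307 between lines. Over 140 well covered miRNAs these medians were -0.0552 and -0.0293. There 29 of 39 libraries were most alike one of their own line and 2 the one with the same number. Whether a number names 1 male is thus uncertain, so single-library values stand beside the averaged ones where they matter. Tests of the averages take the numbers as independent, although libraries of different numbers in 1 line reached a rank correlation of 0.811 over those 150 clusters.

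The first comparison asked which miRNAs differed between the lines, that is, by the prefix, by order of competition. Fold changes are High-first over Low-first, and a miRNA or cluster was called at an adjusted p under 0.05 in limma, a linear model with moderated variances (Benjamini-Hochberg adjustment over all features of the table). None of the 346 miRNAs was called (0%), and the smallest adjusted p was 0.619. At an unadjusted p under 0.05 there were 23 (6.65%), 14 higher (4.05%) and 9 lower (2.6%) in the High-first line. A negative binomial fit to reads recovered from the values called 0 with 47 under that limit, and limma-voom called 0 with 29. Centring each library on its median left the number at 23 but made 21 of them higher. With only libraries of at least 500000 reads the number was 34, of which 12 were higher (35.3%), so the balance of directions depended on the setting. In single libraries with the numbers joined by an estimated correlation, 0 were called and 26 had an unadjusted p under 0.05. The averages of the lines overlapped for every miRNA.

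**Figure D1:**
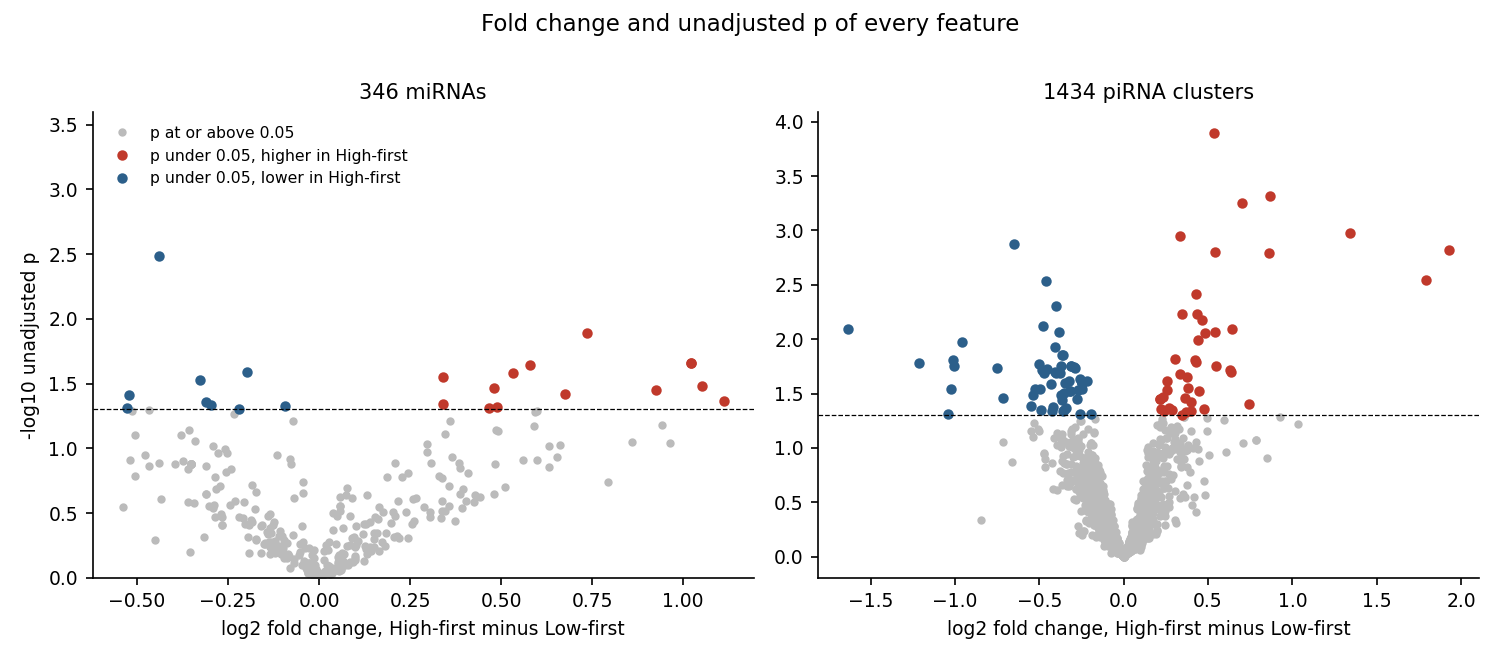
Each point is a miRNA (left panel, 346) or a piRNA cluster (right panel, 1434), with the log2 fold change of High-first over Low-first on the x axis and −log10 of the unadjusted limma p on the y axis. No point passed the adjusted threshold in either panel, and the clusters reached smaller p-values than the miRNAs.

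Among miRNAs with an unadjusted p under 0.05 and at least 100 reads in a line, the largest positive differences were those of miR-182-5p, miR-183-5p, miR-10d-5p, miR-184 and miR-10b-5p, and miR-129-5p came next. The miR-10 miRNAs are encoded within Hox gene clusters, and miR-183, miR-96 and miR-182 are made from 1 transcript known from sensory cells. In all of these the highest values stood in the same 4 libraries, all High-first and all sequenced in pool 5: first-period samples 7 and 8 and second-period samples 6 and 7. Pools are given by library number unless the sample title is named, and the title gives another pool for 6 miRNA libraries and 2 piRNA libraries. These 4 were of pool 5 by both. The other 4 libraries of pool 5 were Low-first and lay among the rest, with 1 exception. First-period sample 6 held 6641 reads of miR-10d-5p, where libraries outside pool 5 held at most 4295.

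Normalised reads of miR-10b-5p were 3487 to 139181 in the 19 High-first libraries (median 5964), against 3485 to 7981 in the 20 Low-first libraries (median 5065). The 4 High-first libraries of pool 5 held 55414 to 139181 reads and the other 15 held 3487 to 14796. Averaged by number, it stood at 22691 ± 31066 in the High-first line and 5234 ± 623 in the Low-first line (SD, n = 10 each), a log2 fold change of 0.93 ± 0.41 (SE; limma p = 0.0352, adjusted p = 0.619). Without High-first numbers 6, 7 and 8 the log2 fold change was 0.21, and without pool 5 it was 0.10.

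For miR-10d-5p the High-first libraries ran from 2091 to 70248 reads (median 3379), against 1396 to 6641 in Low-first libraries (median 2599). Here 17 of 19 High-first libraries lay above the Low-first median, so the shift was also present outside pool 5. Its log2 fold change was 1.02 ± 0.42 (SE; limma p = 0.0221, adjusted p = 0.619), with positive differences in all 5 pools (0.35, 0.08, 0.55, 0.42 and 3.69). Leaving out pool 5 gave 0.36.

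The same 4 libraries were high in miR-10a-5p, with 51876 to 193690 reads against 6961 to 14964 in the other High-first libraries, and in miR-10c-5p, with 468 to 1208 against 47.5 to 217. They were not apart in miR-100-5p, on average the most abundant miRNA of the family, which had 99188 to 139610 reads there and 87262 to 155190 in the other High-first libraries. Of the 6 listed members of the miR-10/99/100 family, 5 were higher in the High-first line, 2 of them at an unadjusted p under 0.05, with a median log2 fold change of 0.63 beside -0.00 over all miRNAs.

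miR-183-5p had 827 to 50150 reads in High-first libraries (median 1159), against 549 to 2477 in Low-first libraries (median 1193). The medians were close, and 9 of 19 High-first libraries lay above the Low-first median. The log2 fold change was 1.05 ± 0.46 (SE; limma p = 0.0327, adjusted p = 0.619), and 0.15 without pool 5. miR-182-5p had 273 to 30932 reads in High-first libraries (median 694), against 165 to 1070 in Low-first libraries (median 492), a log2 fold change of 1.11 ± 0.52 (SE; limma p = 0.0433, adjusted p = 0.619) that came to 0.16 without pool 5. The third member of the transcript, miR-96-5p, went the other way at -0.14, and the 4 pool 5 libraries held 47.5 to 79.7 reads of it, within the 20.8 to 152 of the other High-first libraries.

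miR-184, a miRNA of epithelia such as the cornea, had 1092 to 58169 reads in High-first libraries (median 5441), against 1593 to 8502 in Low-first libraries (median 2919). Here 7 of 19 High-first libraries exceeded every Low-first one and 1 lay below them all. Outside pool 5 the libraries above were first-period samples 2 and 5 and second-period sample 2, so high values were not confined to pool 5. Its log2 fold change was 1.02 ± 0.41 (SE; limma p = 0.0218, adjusted p = 0.619), and it was 0.50 without pool 5 and 0.46 without High-first numbers 6 to 8. By pool the differences were 0.62, 0.40, -0.17, 1.25 and 3.10. miR-129-5p, known from neurons, had 1457 to 25313 reads in High-first libraries (median 2657), against 870 to 4884 in Low-first libraries (median 2073). Its log2 fold change was 0.67 ± 0.31 (SE; limma p = 0.0383, adjusted p = 0.619), and 15 of 19 High-first libraries lay above the Low-first median.

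**Figure D2:**
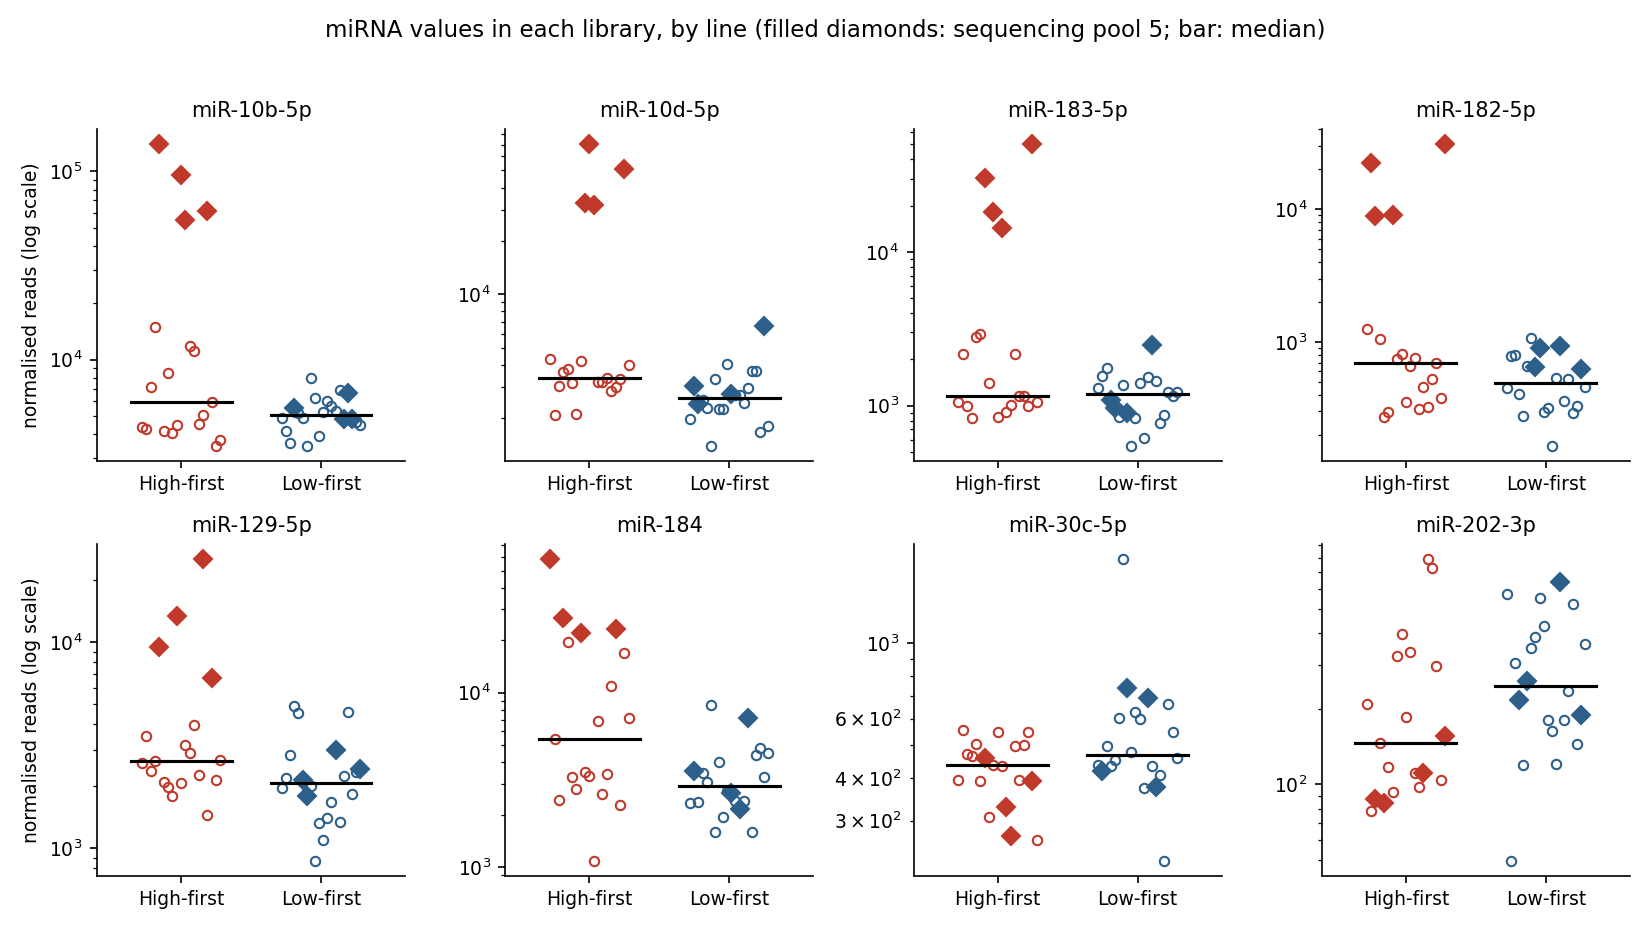
Normalised reads (log axis) of 8 miRNAs in each miRNA library, High-first to the left of Low-first, with filled diamonds for pool 5. The High-first diamonds of miR-10b-5p lie at 55414 to 139181 and every other library at or below 14796, while in miR-30c-5p they lie among the rest.

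Of the 7 miRNAs that the study's results text names for contrasts of treatment and period, all had a positive line difference, a list chosen on these same samples and so no independent evidence of direction. The other 3 had unadjusted p-values above 0.05. miR-193b-5p had 9.01 to 956 reads in High-first libraries (median 52.5), against 10.6 to 143 in Low-first libraries (median 33.9), a log2 fold change of 0.86 ± 0.48 (SE). miR-200a-5p had 18.0 to 1398 reads in High-first libraries (median 130), against 11.2 to 246 in Low-first libraries (median 62.1), a log2 fold change of 0.94 ± 0.49 (SE). miR-181a-5-3p, at 0.56 ± 0.35 (SE), turned to -0.10 without pool 5.

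The 6 listed members of the miR-200 family, which keeps epithelial cells epithelial by acting on Zeb genes, had a median log2 fold change of -0.11 with 1 of 6 higher. Of the 4 listed miR-181 members 3 were higher, with a median of 0.19, and in pool 5 the line differences of miR-181a-5p, miR-181b-5p and miR-181c-5p were 0.76, 0.74 and 1.89. miR-200a-5p and miR-181a-5-3p, given above at 0.94 and 0.56, were not on these lists. Neither list had a member at an unadjusted p under 0.05.

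Within pools, 47 miRNAs were over 2-fold higher and 14 over 2-fold lower in the High-first libraries of pool 5, together 17.6% of the table. In pool 3 the counts were 38 and 14 (15%), and in pool 1 they were 4 and 3, so pool 5 was not the only pool with many differences over 2-fold. Pool 3 held the shallowest Low-first miRNA libraries, however. First-period sample 1 had 79435 reads and 176 miRNAs detected, and first-period sample 3 had 166612 reads and 212 detected, against a Low-first median of 297.5 detected. The part of depth in the pool 3 counts was not tested. With pool as a covariate in single libraries, 41 miRNAs (11.8%) had an unadjusted p under 0.05 and 0 were called. The direction was the same in all 5 pools for 5 miRNAs that were higher and 7 that were lower, 3.47% of the table, where 6.25% of all possible sign patterns over 5 pools have a single sign. Among them, let-7f, of the let-7 family known for timing development, stood at 38307 ± 17338 reads in the High-first line and 24930 ± 6636 in the Low-first line (SD, n = 10 each; log2 fold change 0.49, limma p = 0.0475, adjusted p = 0.619). Its differences in pools 1 to 5 were 0.40, 0.05, 0.57, 0.10 and 0.98, the largest in pool 5. Of the 9 let-7 miRNAs measured, 7 were higher, with a median log2 fold change of 0.12.

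**Figure D3:**
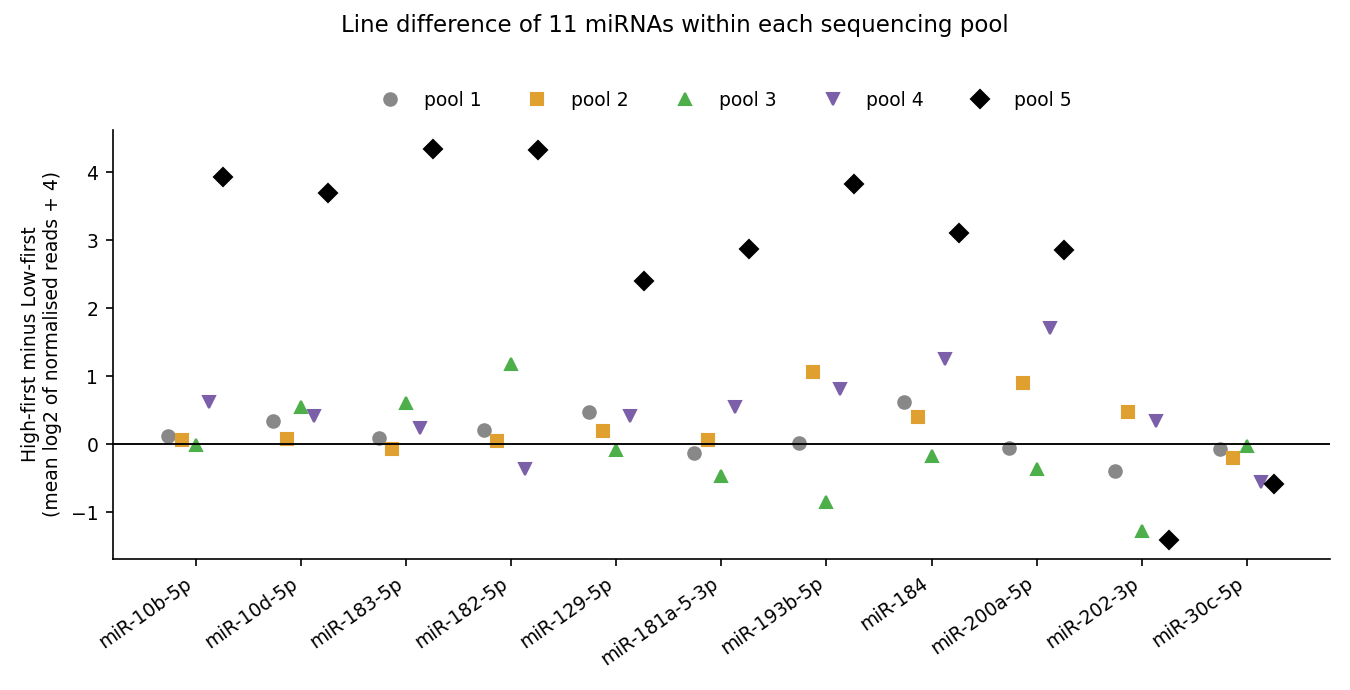
Line difference (log2 units, High-first minus Low-first) of 11 miRNAs in each of the 5 sequencing pools. In pool 5 the differences of miR-10b-5p, miR-183-5p and miR-182-5p reach 3.92, 4.34 and 4.32, and in pools 1 and 2 those of the same miRNAs lie between -0.07 and 0.21.

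Fewer miRNAs of appreciable abundance were lower. miR-202, a miRNA of gonads in fish and other vertebrates, was lower on both strands. miR-202-3p had 78.2 to 790 reads in High-first libraries (median 146), against 49.7 to 638 in Low-first libraries (median 247), and 13 of 19 High-first libraries lay below the Low-first median. Its log2 fold change was -0.52 ± 0.24 (SE; limma p = 0.0385, adjusted p = 0.619), with pool differences of -0.40, 0.48, -1.27, 0.34 and -1.40. The other strand, miR-202-5p, had a log2 fold change of -0.50 (limma p = 0.0782, adjusted p = 0.619). miR-30c-5p had 262 to 554 reads in High-first libraries (median 437), against 228 to 1774 in Low-first libraries (median 469). The log2 fold change was -0.30 ± 0.14 (SE; limma p = 0.046, adjusted p = 0.619), and it was negative in all 5 pools. miR-34c-5p, which is abundant in mouse sperm, was also lower in all 5 pools, at -0.36 (limma p = 0.0719, adjusted p = 0.619). The smallest p of the table, 0.00326 in limma (adjusted p = 0.619), belonged to miR-430b-5p, which averaged 1.53 reads in the High-first line and 3.87 in the Low-first line.

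Lists of miRNAs typical of other tissues showed no called member. The 8 blood cell miRNAs summed to 347 to 1828 reads in High-first libraries and 337 to 2833 in Low-first libraries, with a median log2 fold change of -0.19. miR-451, the red cell miRNA, was at 0 in 2 High-first libraries and 1 Low-first library and reached 1260 and 2429. The 6 muscle miRNAs summed to 398 to 2776 reads in High-first and 406 to 1476 in Low-first libraries, and the liver miRNA miR-122 had 1596 to 5304 in High-first and 1406 to 7136 in Low-first libraries. The 3 skin and epithelium miRNAs summed to 11052 to 96336 in High-first (median 17761) and 10641 to 61726 in Low-first libraries (median 24227). Of the 4 pancreas miRNAs 1 was higher and 3 were lower, with a median log2 fold change of -0.16. The lower ones included miR-216a at -0.53 (limma p = 0.0486, adjusted p = 0.619). The higher one was miR-375, known from the endocrine pancreas and from other epithelia, at 0.60 (limma p = 0.0514, adjusted p = 0.619). The 4 High-first libraries of pool 5 held 3174 to 8430 reads of miR-375, against 701 to 4185 in the other High-first libraries. The part of tract or somatic cells in the line differences was not tested.

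The line contrast was also taken within each period. By the prefix each period then compares opposite treatments, High1 with Low1 and Low2 with High2, but the public labels of the second period mostly run the other way, High2 for the High-first prefix and Low2 for the Low-first prefix. In the first period 11 miRNAs (3.18%) had an unadjusted p under 0.05 in limma, in the second 14 (4.05%), and for the change of the line difference between periods 4 (1.16%), with 0 called in each. None had an unadjusted p under 0.05 in both periods, and 214 (61.8%) had the same direction in both. The log2 difference of miR-10b-5p was 0.97 in the first period and 1.01 in the second, and that of miR-202-3p was -0.50 in both. Others were further apart: 0.77 in the first and 1.38 in the second for miR-10d-5p, 0.86 and 1.37 for miR-183-5p, 0.46 and 0.95 for miR-129-5p, 0.66 and 1.35 for miR-193b-5p, and -0.13 and -0.45 for miR-30c-5p. In none of these did the period difference pass (limma, adjusted p = 0.998).

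The second comparison asked which piRNA clusters differed between the lines. Of the 1434 clusters, 532 were known and 902 predicted by the authors from these reads. Positions are on GRCz11, no annotation of that build was used here, and the genes or transposons within a cluster are therefore not named. None of the clusters was called in limma (0%, smallest adjusted p = 0.182). At an unadjusted p under 0.05 there were 101 (7.04%), 43 higher (3%) and 58 lower (4.04%) in the High-first line. The negative binomial model called 2 with 138 under that limit, and limma-voom called 1 with 88, or 0 with 71 when total reads set the library sizes. That last scaling moved the median log2 fold change of all clusters to -0.29, and 4 of its 71 were higher. Without the number averages, 0 were called and 119 had an unadjusted p under 0.05.

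The smallest p fell to chr5:747001-760987, a predicted cluster with reads from both strands. Its High-first libraries held 1458 to 3520 reads (median 2098), against 1120 to 1855 in Low-first libraries (median 1581), and 10 of 12 High-first libraries lay above every Low-first one. The mean was 2266 ± 424 reads in the High-first line (SD, n = 9) and 1542 ± 158 in the Low-first line (SD, n = 8). This gave a log2 fold change of 0.54 ± 0.11 (SE; limma p = 0.000127, adjusted p = 0.182), 0.74 in the first period and 0.35 in the second. The negative binomial model (adjusted p = 0.0069), limma-voom (adjusted p = 0.0242), limma without the 2 shallowest libraries (adjusted p = 0.0231) and limma on single libraries grouped by the first word of the public treatment label (adjusted p = 0.016) called it. None of the fits with pool as a covariate called it, and its line difference was positive in each of the 4 pools that hold both lines. Leaving out 1 number at a time gave adjusted p-values of 0.087 to 0.566.

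The other call of the negative binomial model was chr7:63048-99933 (adjusted p = 0.0087), where High-first libraries held 3059 to 4994 reads (median 3721), against 2173 to 3486 in Low-first libraries (median 3074). Here too 10 of 12 High-first libraries lay above every Low-first one, and the libraries that were high at the chr5 cluster, first-period sample 4 and second-period sample 6 of the High-first line, were the highest. The log2 fold change was 0.34 ± 0.09 (SE; limma p = 0.00113, adjusted p = 0.254).

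On chromosome 20, 2 clusters were higher. At chr20:53754188-53763828 the High-first libraries held 842 to 2919 reads (median 1331), against 401 to 1207 in Low-first libraries (median 855), a log2 fold change of 0.87 ± 0.21 (SE; limma p = 0.000483, adjusted p = 0.254). At chr20:12225229-12234949 they held 663 to 1707 reads (median 1017), against 470 to 991 in Low-first libraries (median 671), a log2 fold change of 0.70 ± 0.17 (SE; limma p = 0.000555, adjusted p = 0.254). In each, 7 of 12 High-first libraries lay above every Low-first one. Both were positive in each of the 4 pools that hold both lines (0.64, 0.95, 1.26 and 1.04 for the one, 0.15, 0.69, 1.08 and 1.17 for the other), and both were called once pool was a covariate in single libraries, a fit that takes libraries as independent, when 5 clusters passed by library number (0.349%) and 16 by sample title (1.12%). Pool 3 held High-first piRNA libraries only (4 against 0), so its level cannot be told apart from the line. A further cluster, chr5:54886708-54897010, had 65.3 to 268 reads in High-first libraries (median 120), against 47.0 to 94.4 in Low-first libraries (median 74.7). Its log2 fold change was 0.86 ± 0.23 (SE; limma p = 0.0016, adjusted p = 0.254), and 9 of 12 High-first libraries lay above every Low-first one. It was called in 2 of 39 alternative fits.

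**Figure D4:**
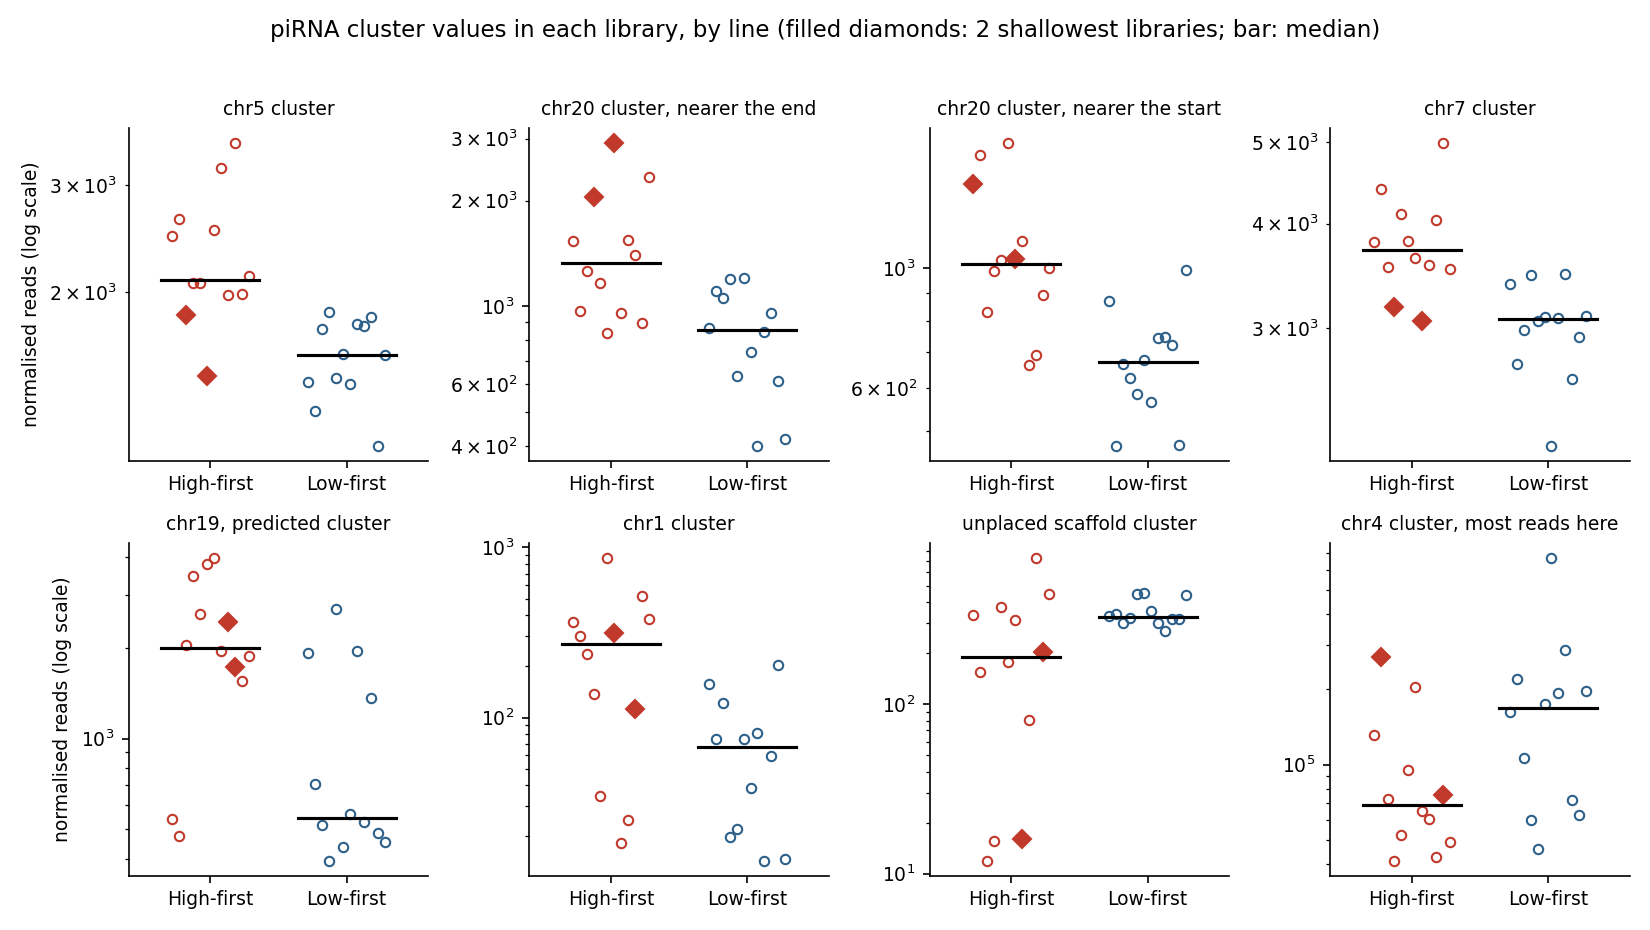
Normalised reads (log axis) of 8 piRNA clusters in each piRNA library, High-first to the left of Low-first, with diamonds for the 2 shallowest libraries. At the chr5 and chr7 clusters 10 of 12 High-first libraries lie above all Low-first ones, and at the chr19 cluster the libraries of each line fall into a high and a low range.

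The cluster at chr19:10800007-10816911 differed in how many libraries were high rather than in a shift of all. High-first libraries held 476 to 3977 reads (median 1995), against 394 to 2694 in Low-first libraries (median 545), and no library lay between 704 and 1367. Above that gap were 10 of 12 High-first libraries and 4 of 12 Low-first libraries, a limit drawn after the values were seen. On the log2 scale the line difference was 1.34 ± 0.35 (SE; limma p = 0.00106, adjusted p = 0.254). This cluster was called in 2 of 40 alternative fits. The known cluster chr19:10803053-10812792 lies within it, shares its reads and was split the same way, 10 of 12 against 4 of 12, at 1.79 ± 0.53 (SE; limma p = 0.00288, adjusted p = 0.381). At chr1:57940016-57946585 High-first libraries had 18.3 to 869 reads (median 269), against 14.4 to 203 in Low-first libraries (median 66.9), without a gap of that kind. There 7 of 12 High-first libraries and 1 of 12 Low-first libraries held over 200 reads, a limit also drawn after the values were seen. The values nearest this limit were 158 below and 203 above. The log2 fold change, 1.93 ± 0.52 (SE; limma p = 0.00151, adjusted p = 0.254), was 2.65 in the first period and 0.50 in the second.

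Among lower clusters the difference was largest at KN149690.1:143000-149013, on an unplaced scaffold. High-first libraries held 11.9 to 732 reads (median 190), against 272 to 452 in Low-first libraries (median 329), and 7 of 12 High-first libraries lay below every Low-first one. The Low-first libraries were close together and the High-first ones far apart, with means of 195 ± 178 in the High-first line (SD, n = 9) and 344 ± 42.3 in the Low-first line (SD, n = 8). Its log2 fold change was -1.63 ± 0.55 (SE; limma p = 0.0081, adjusted p = 0.574), and it was called in 3 of 39 alternative fits. The negative binomial model gave -0.47 (adjusted p = 0.740). By pool the differences were -4.11 (pool 1), -2.97 (pool 2), -0.45 (pool 4) and -0.74 (pool 5). Second-period samples 9 and 3 and first-period sample 10 of the High-first line held 11.9, 16.0 and 15.5 reads. In that second-period sample 3, 1 recovered read counts as 16.0. The cluster chr18:29788027-29792839 had 24.2 to 879 reads in High-first libraries (median 340), against 511 to 1919 in Low-first libraries (median 803), a log2 fold change of -1.21 (limma p = 0.0165, adjusted p = 0.594), and 7 of 12 High-first libraries again lay below all Low-first ones. On chromosome 4, a zebrafish chromosome whose long arm is rich in piRNA clusters and repeats, chr4:42928066-42947018 averaged 8240 ± 7315 reads in the High-first line (SD, n = 9) and 18960 ± 16687 in the Low-first line (SD, n = 8). This gave a log2 fold change of -1.02 (limma p = 0.029, adjusted p = 0.610). Of the 309 clusters of chromosome 4, 18 (5.83%) were under the unadjusted limit of 0.05, with 5 higher and 13 lower, a share near the 7.04% of the table. The cluster chr4:18038296-18046510, at -1.01, and chr22:1883000-1888613, at -1.04, were the other 2 of the largest negative differences.

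The clusters that the study's results text names were chosen there for contrasts of treatment and period, and between the lines none was called. The chr1 cluster described above is among them. At chr12:14899002-14913024 the mean was 1223 ± 177 reads in the High-first line (SD, n = 9) and 1521 ± 410 in the Low-first line (SD, n = 8). The log2 fold change was -0.27 (limma p = 0.0892). At chr11:37007002-37018889 it was 1762 ± 315 in the High-first line (SD, n = 9) and 2321 ± 487 in the Low-first line (SD, n = 8). The log2 fold change was -0.38 (limma p = 0.00858), with 6 of 12 High-first libraries below every Low-first one. The cluster chr16:14845000-14858022 had -0.37 in the first period and 0.13 in the second. At chr4:52720448-52740603 High-first libraries held 41352 to 270202 reads (median 69163), against 45778 to 671688 in Low-first libraries (median 168773), and 10 of 12 High-first libraries lay below the Low-first median, yet the log2 fold change of -0.66 had a limma p of 0.134. At chr22:32643430-32648896 it was 1.04 (limma p = 0.0601), and 7 of 12 High-first libraries lay above every Low-first one. The highest was first-period sample 1 of the High-first line, at 14522 reads.

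Known and predicted clusters had like shares at an unadjusted p under 0.05, 37 of 532 (6.95%) and 64 of 902 (7.1%). Clusters with reads from 1 strand had 53 of 722 (7.34%), 18 higher and 35 lower, and those with reads from both strands 11 of 180 (6.11%). Clusters on alternative haplotype sequences had 9 of 163 (5.52%), of which 8 were lower, and some of these repeat the values of their partner on the reference chromosome.

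By period, 91 clusters (6.35%) had an unadjusted p under 0.05 in limma in the first, 146 (10.2%) in the second, and 126 (8.79%) for the change of the line difference between them, with 0 called in each. The direction was the same in both periods for 694 of 1434 (48.4%). Only 6 clusters (0.418%) had an unadjusted p under 0.05 in both periods with the same direction: the chr5 clusters at 747001 and 54886708, both chr20 clusters, chr2:34616009-34624986 at 0.44, and, in the lower direction, chr18:29941000-29946020, with 620 ± 395 reads in the High-first line and 1032 ± 397 in the Low-first line (SD). Direction was constant over the 4 pools with both lines for 60 clusters that were higher and 70 that were lower, 9.07% of the table, where 12.5% of all possible sign patterns over 4 pools have a single sign.

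In the piRNA table the lines also differed in how far apart their samples lay. The distance of each number's profile from the centroid of its line, in log2 units over all clusters, was 16.3 ± 4.20 in the High-first line (SD, n = 9) and 11.4 ± 3.80 in the Low-first line (SD, n = 8). The difference of 4.83 had a 2-sided exact permutation p of 0.0221 (0.0443 adjusted over the 2 tables). More numbers of the Low-first line were means of 2 libraries (4 of 8, against 3 of 9), and a mean of 2 lies nearer the centroid. Numbers with 1 library lay at 12.3 to 25.4 in the High-first line and 12.3 to 16.6 in the Low-first line, and those with 2 at 12.5 to 15.8 in the High-first line and 7.63 to 8.74 in the Low-first line. Over single libraries the distances were 18.2 ± 5.09 in the High-first line and 13.7 ± 1.70 in the Low-first line (SD, n = 12 each), a difference of 4.51. Its permutation p of 0.00504 takes all libraries as independent, and the exact permutation p of 0.0221 takes the numbers as independent. Without the 2 shallowest libraries, both High-first, the difference was 4.10 and no longer passed (permutation p = 0.0842), and it was 3.29 without High-first number 1 (exact permutation p = 0.0757) and 4.31 without number 2 (0.0547). The SD of the log2 value was larger in the High-first line for 1109 of 1434 clusters, with a median ratio of 1.58. The lines were spread unlike over the sequencing pools. Pools 1 to 5 held 2, 2, 4, 2 and 2 High-first piRNA libraries and 2, 2, 0, 4 and 4 Low-first ones. The part of the pools in the distances was not tested.

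**Figure D5:**
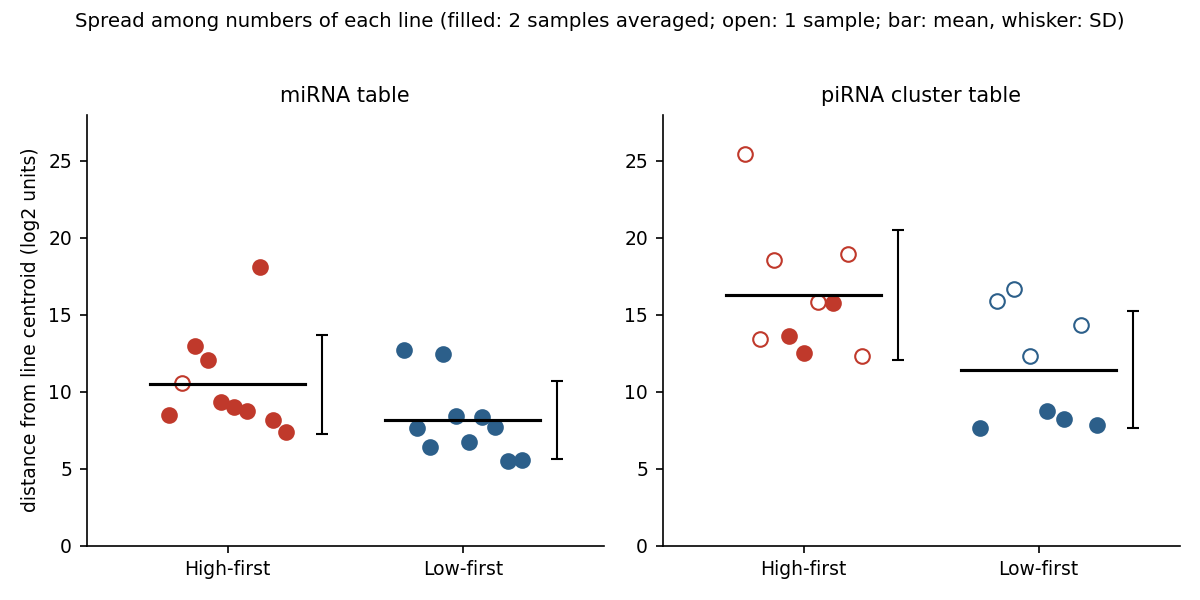
Distance of each number's profile from the centroid of its line (log2 units), for miRNAs and for piRNA clusters, High-first to the left of Low-first. Filled points average 2 libraries and open points are 1 library, with the mean as a bar and the SD as a whisker, and for the clusters the means are 16.3 in High-first and 11.4 in Low-first.

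For miRNAs the distances were 10.5 ± 3.20 in the High-first line and 8.14 ± 2.55 in the Low-first line (SD, n = 10 each), a difference of 2.33 that did not pass (permutation p = 0.0847). Of 143 miRNAs with at least 100 reads, 111 had the larger SD in the High-first line, with a median ratio of 1.38. The first principal component of the miRNA table, 27.8% of its variance, had mean scores of 2.30 ± 6.95 in the High-first line and -2.30 ± 1.88 in the Low-first line (SD, n = 10 each). The difference of 4.59 had a permutation p of 0.0216, or 0.0864 adjusted over the 4 components tested, and it was 1.28 without High-first numbers 6 to 8. Number 7 of the High-first line alone scored 19.6. The first component of the piRNA table, 32.0% of its variance, differed by 3.51 (permutation p adjusted over 4 = 0.620).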

How the data were processed

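Small RNA libraries of sperm were aligned by the authors with PatMaN, without mismatch, to zebrafish miRBase miRNAs or to piRNA clusters on GRCz11 and counted. The authors normalised with DESeq2, and the submitters' processing notes list GRCz10. The deposited unit is log2, here read as log2 of reads over a size factor plus 4, from their steps: recovered reads were whole within 0.1 in 100% of the values tested (9562 for miRNAs, 28905 for clusters). Reads carry no molecular identifiers, and a read aligning to several clusters may be counted in each. Of 346 miRNAs 334, and of 1434 clusters 1398, had distinct values.

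Libraries of 1 line with the same number were averaged on the log2 scale and tested in limma 3.58.1 (R 4.3.3, variance trend, line as the only factor), with no filter. Single values, distances and components were tested by 2-sided permutation over numbers (100000 resamples, or exact), in Python 3.11.15 with numpy 2.4.6 and scipy 1.17.1. Recovered reads summed per number were fitted by limma-voom and by a negative binomial likelihood ratio test. The limma and the negative binomial fits were tested on simulated data, drawn independently for each feature with the same spread in both lines. Among 1234 unchanged clusters limma called 12 (0.972%) and the negative binomial fit 24 (1.94%). Of 100 clusters changed by 1 log2 unit they called 97 and 96. The negative binomial calls thus held more unchanged clusters than those of limma. Of 44 miRNAs changed by 1 log2 unit limma called 39 (88.6%) and the negative binomial fit 26 (59.1%). A further 42 miRNAs were changed by 2 log2 units, and 260 of 346 were left unchanged. Among the 1434 clusters a further 100 were changed by 2 log2 units. With so many true changes the adjusted threshold is easier to pass than where few features change. In the real data most features varied more in the High-first line, and how many truly differ is unknown. The shares called in the simulation thus do not tell how often a real change of 1 log2 unit would have been called. Of 40 samples, 1 had no miRNA column and 16 no piRNA column in the tables used here.

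Named features were the 5 highest and 5 lowest fold changes among those with an unadjusted p under 0.05 and at least 100 reads in 1 line, those the study's results text names, and list members. The 5 clusters of smallest p were added after their values were seen, and others outside the rule are given in groups. Members and lists were chosen with earlier results of these data known. Embryo data were not used here.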

Additional observations from a re-analysis of the deposited data

Results flagged for a closer look

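Of 58 groups of 8 to 10 number averages, 5 held a value far from the others. Chance gives about 1 in 20 in groups not chosen by their values. Many of these features were named for their values, so that rate is no measure here. In the High-first line number 7, sequenced in pool 5, was the outlying average in 3 miRNAs. Its log2 value of miR-183-5p was 14.89, against 9.859 to 12.29 in the other numbers. For miR-129-5p it was 14.17, against 10.78 to 12.18, and for miR-181a-5-3p it was 12.19, against 8.288 to 9.886. In the Low-first line number 7 had 9.764 for miR-30c-5p, against 8.567 to 9.111 in the others. Among clusters, number 1 of the High-first line had 13.83 at chr22:32643430-32648896, against 8.529 to 10.64 in the other numbers.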

How the results depend on the processing

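No alternative called a miRNA. At an unadjusted p under 0.05 the miRNA count was 12 to 36 when 1 number was left out in turn and 11 to 47 otherwise, and the cluster count 70 to 135 and 63 to 210, against 23 and 101. The miRNA count moved over 1.5 times without High-first number 3 (36), 6 (12) or 7 (15) and without Low-first number 2 (15), 3 (14), 5 (12) or 9 (14). The count of called clusters, 0 as reported, was 1 with libraries of at least 10000000 reads, 1 with limma-voom, 1 with the first word of the public treatment label, 2 with the negative binomial model, 5 with pool by library number, 16 with pool by sample title and 16 with pool and joined numbers. With the replicate number as a block across lines, 0 miRNAs (33 at an unadjusted p under 0.05) and 1 cluster (111) were called. The numbers did not pair the lines, since deviations of same-numbered averages correlated at -0.139 to 0.350 for miRNAs (10 pairs) and -0.173 to 0.208 for clusters (7 pairs).

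The piRNA distance difference was 4.16 without High-first numbers 6, 7 and 8 and 4.10 with libraries of at least 10000000 reads, neither past the threshold, and the cause was not tested. With only numbers of both samples it was 4.91, but 3 numbers against 4 allow no exact permutation p below the 0.0571 obtained. Leaving out 1 number gave 3.29 to 5.81 for clusters and 1.26 to 2.96 for miRNAs, which passed without Low-first number 1 (2.96) or 3 (2.93). Component differences then ranged from 1.02 to 5.10 (miRNA, first; 4.92 without Low-first number 6 passed), -2.27 to 1.41 (miRNA, second), -1.34 to 5.20 (piRNA, first) and -4.27 to 5.04 (piRNA, second). Directions turned for miR-181a-5-3p without pool 5 (-0.10), chr16:14845000-14858022 in the second period (0.13), the second miRNA component without High-first numbers 6 to 8 (-1.20), and the second piRNA component at 10000000 reads (-3.68). The read limit for clusters, the pool fit with joined numbers, both voom library sizes, distances over single libraries and the limits of the 2 read ranges were chosen after seeing the data.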

Other observations

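Over the 150 clusters of largest SD, the most alike piRNA libraries were of 1 line but of different numbers. The highest rank correlation, 0.811, joined second-period samples 7 and 10 of the Low-first line. By library number they were of pools 4 and 5, and by sample title both were of pool 5. In the High-first line, first-period sample 3 and second-period sample 4 had a rank correlation of 0.800, and first-period sample 1 and second-period sample 3 one of 0.762. Each of these pairs shared a sequencing pool, pool 3 and pool 2. In the Low-first line, first-period sample 7 and second-period sample 9, both of pool 5, had 0.716. At the known chr19 cluster, where levels span 119 to 3723 reads, High-first first-period sample 3 held 178 reads and second-period sample 4 held 178. The median over all pairs of libraries was -0.0357. These values come from the same reads and share the clusters' repeats, and the part of a shared male or a shared pool was not tested.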
